A study of Xenopus laevis with 24 samples.

Results

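Of 44478 genes measured in cultured foregut tissue of Xenopus laevis, 37 stood higher at stage NF33 than at NF25 in controls and stood lower at NF33 when retinoic acid receptors were blocked, while in rfx6 morphants they lay near the control level on the scale of the rule. The members were picked by these values. On the scale of log2(mean TPM + 1), where TPM is transcript abundance corrected for length and sequencing depth, a member stood at least 1 higher in NF33 than in NF25 controls and less than 1 lower at NF38 than at NF33. Under the receptor block it stood at least 0.8 below controls at NF33 and less than 0.8 below them at NF25, and in rfx6 morphants at NF33 it lay less than 0.4 from controls. A limit of 300 genes was not reached. The levels behind these conditions are therefore described and not tested, and the tests below use the rfx6 morphants at NF25 and NF38, which had no part in the choice.

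Retinoic acid is made from vitamin A in embryonic tissue and acts on nuclear receptors (RAR, paired with RXR) that sit on DNA and switch from recruiting corepressors to recruiting coactivators once the ligand binds. In vertebrate embryos it helps set position along the gut tube and is needed for organs that bud from the foregut, among them the pancreas and, in frog and mouse, the lung. BMS493 is an inverse agonist of these receptors, which favours corepressor binding. Rfx6 is an RFX-family transcription factor of gut and pancreatic endoderm, known in mouse and human for its role in forming endocrine cells.

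Each of 8 groups had 3 libraries, 24 in all, and library totals ran from 19433955 to 31005048 counts. Explants of foregut mesoderm and endoderm were taken from wild-type NXR_0031 embryos at NF15 and kept at 15 °C for 16 hours to NF25, a further 16 hours to NF33 and a further 12 hours to NF38, with 8 explants pooled per replicate. Controls (NF25, NF33, NF38) carried 2.5 ng of an oligonucleotide with 5 mismatched bases and were kept in 0.1% DMSO. The rfx6 morphants (NF25, NF33, NF38) carried 2.5 ng of a morpholino that blocks translation, so the RNA of its target need not fall. BMS493 explants (NF25, NF33) received 250 nM of the compound right after dissection, and no BMS493 group at NF38 is described here. The labels do not state whether BMS493 explants also carried the mismatch oligonucleotide or whether morphants were kept in DMSO. The labels' batch tag repeats the stage, so stage and batch cannot be told apart, while each treatment shares the tag of its stage control. Replicates are described as biological replicates, and no parents are named, so p-values measure the spread between such pools. In such bulk samples, fewer cells of a type and less RNA per cell cannot be told apart.

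The files list genes by number and pair none with a symbol. None of the 44478 identifiers matched a RefSeq table of 44456 genes (assembly Xenopus_laevis_v10.1), so no member is named, the tissue could not be checked by marker genes, and gene lists for retinoic acid, endocrine and other cell types were not run. Members are therefore ordered by how they behaved. Xenopus laevis is allotetraploid, and near-identical gene copies may share reads, so the value of a single identifier carries that uncertainty.

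In controls the 37 members were mostly modest in level, and their median at NF38 was close to that at NF33. Their median was 1.04 TPM at NF25, 6.14 TPM at NF33 and 5.97 TPM at NF38, and the NF33 level ran from 1.42 to 54.5 TPM. At NF33, 15 members stood at 10 TPM or more and 14 stood under 5 TPM. The rise from NF25 to NF33 had a median of 1.44 on the log2(mean TPM + 1) scale, with a range of 1.01 to 3.42. From NF33 to NF38, 26 members did not go up, 8 went up by less than 1 and 3 by at least 1.

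Under BMS493 the NF33 level lay between the NF25 and NF33 control levels in most members. The difference from controls at NF33 had a median of -1.04 and ran from -2.80 to -0.81 on the log2(mean TPM + 1) scale. As a share of the control rise on that log2 scale, the part missing had a median of 72.2%. It was under 50% in 8 members, between 50% and 100% in 18, and 100% or more in 11, so that in these 11 the BMS493 level at NF33 was no higher than the NF25 control level. Of the 11, XBXL10_1g7563 and XBXL10_1g18390 had 0 counts in both of those groups, so nothing can be read from their share. XBXL10_1g7563 also gave the difference of -2.80. All these numbers include the 3 members with under 10 counts in every library, described below. From NF25 to NF33, 8 members went up by at least 1 within BMS493 explants, against 28 within rfx6 morphants. The rule set the NF33 levels of both treatments, so it largely fixed this contrast and nothing is read from it. In morphants at NF33 the difference from controls lay between -0.33 and 0.33, with a median of -0.16, and 25 of the 37 lay below 0. On counts the same difference was wider: over the 34 members with enough counts the log2 fold change ran from -1.36 to 0.44, with a median of -0.30. It lay at or below -0.8, the size that the rule asks for under BMS493, in 5 of the 34, where 8.82% of all genes lay there. The rule used these libraries, so nothing is read from that share, but for those 5 the counts do not keep the level near controls.

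**Figure D1:**
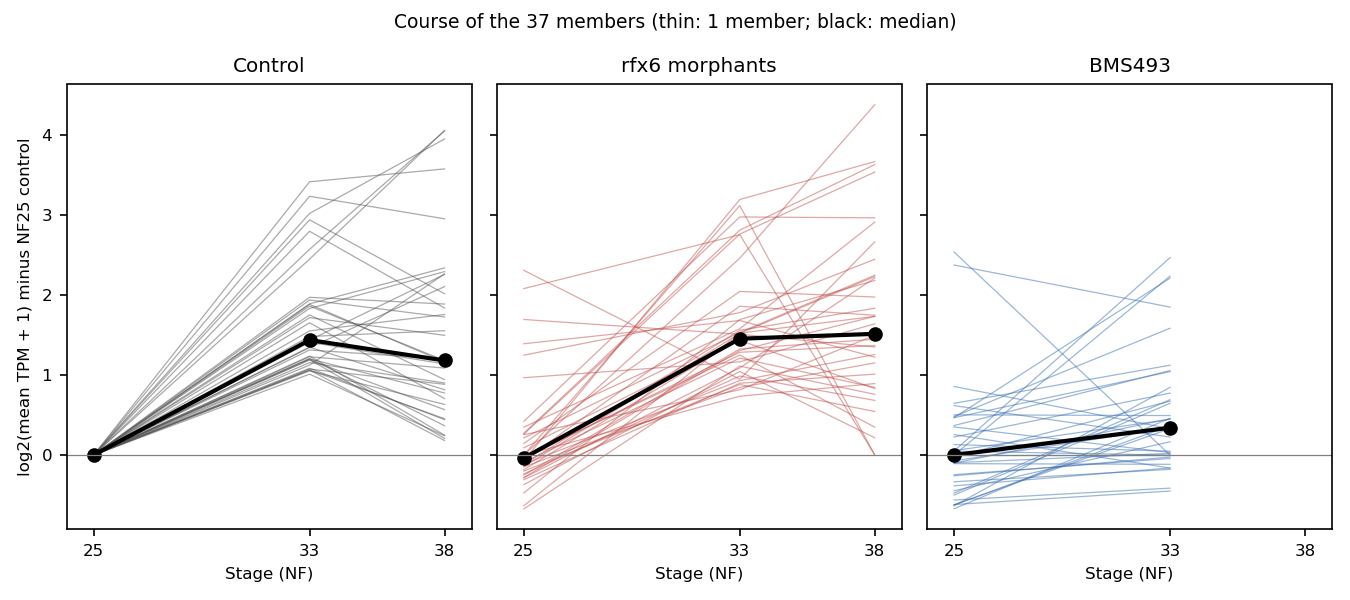
Course of each of the 37 members over the stages (NF, x axis), as the difference in log2(mean TPM + 1) from NF25 controls (y axis), in controls, rfx6 morphants and BMS493 explants; thin lines are members and the black line is their median. The median reached 1.44 in controls, 1.46 in morphants and 0.34 in BMS493 explants at NF33.

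Some limits of the rule had a gene close by on either side, while others had wider gaps. The member nearest the BMS493 limit at NF33 stood at -0.807 and the nearest gene outside at -0.797. That condition alone was failed by 880 genes, a number that, like those below, counts genes at any distance from the limit. For the rfx6 limit the nearest values were 0.330 inside and 0.402 outside, with 251 genes failing it alone. For the rise in controls they were 1.01 inside and 0.952 outside, with 44 failing it alone. The step from NF33 to NF38 had 0.990 inside and 1.00 outside (7 genes), and BMS493 at NF25 had -0.672 inside and -0.804 outside (5 genes). When the means were taken without any 1 of the 18 libraries that the rule reads, 12 of the 37 genes were found every time.

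The deposited counts, set beside TPM, divided the members into 3 classes. The rule did not read the counts, but it read TPM values that enter these classes. TPM divides a gene's counts by the length of the transcripts they are assigned to, so counts per TPM, taken relative to the median gene of a library, tracks that length. In 20 members counts per TPM stayed within 1.25-fold over the groups where the level allowed a value. Among these, XBXL10_1g36088 and XBXL10_1g39063 had no value in either BMS493 group. XBXL10_1g40727, XBXL10_1g43526 and XBXL10_1g27630 had none for BMS493 at NF25. In 14 members it shifted at least 1.25-fold between groups, and in 7 of these at least 2-fold. The remaining 3 members had under 10 counts in every library, with a highest count of 4. Of the 34 members that could be compared, 41.2% shifted at least 1.25-fold, against 13.6% of 26643 genes in the tables with enough counts. Since the members were chosen on TPM differences between these groups, nothing is read from that comparison. The 20 with steady counts per TPM included all 12 genes that were found whichever library was left out. This division was made after the values had been seen.

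The 3 members with almost no counts had very low counts per TPM. Their counts per TPM were under 0.01 of the median gene, a property of 1.34% of all genes at 0.3 TPM or more in NF33 controls, so a single count was worth several TPM. XBXL10_1g7563, which had the most negative BMS493 difference on the rule's scale, was at 8.83, 9.06 and 0 TPM in the NF33 controls from 1, 1 and 0 counts, and at 0 TPM in all 3 BMS493 libraries at NF33. XBXL10_1g18390, the next, was at 14.9, 0 and 0 TPM in NF33 controls from 1, 0 and 0 counts. At NF25 it also had the largest gain under BMS493, at 14.5, 0 and 0 TPM, again from 1, 0 and 0 counts. These values lie at or under the 3 counts over a group that a count of 0 allows, so no fold is given and the differences were not detectable at this depth.

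**Figure D2:**
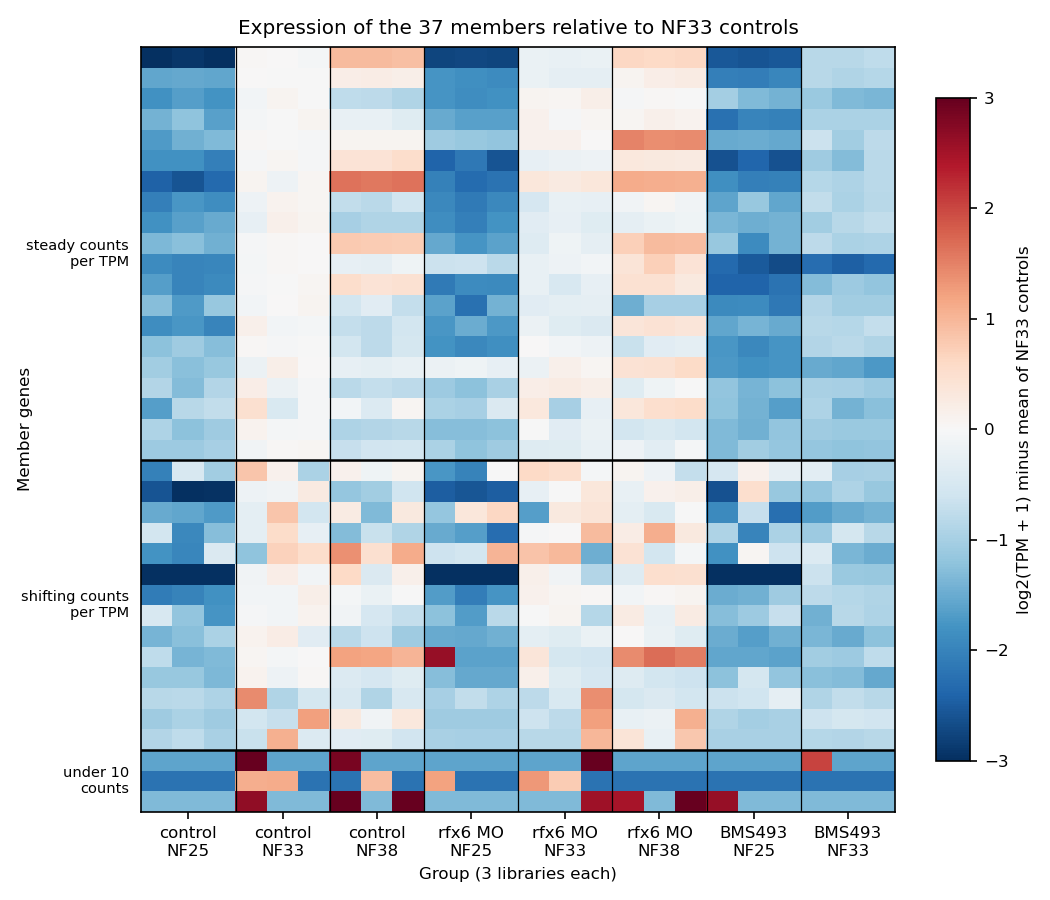
Expression of the 37 members (rows) in each of 24 libraries (columns, 3 per group) as log2(TPM + 1) minus the mean of the NF33 controls, with colours ending at -3 and 3. The 20 members with steady counts per TPM have a median coefficient of variation of 6.51% in NF33 controls, with XBXL10_1g39063, which has few counts, far more variable (2.27 TPM, SD 1.05), while several of the 14 shifting members and all 3 members under 10 counts vary between libraries of 1 group.

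Among the 14 members with shifting counts per TPM, the BMS493 difference depended on the scale. Their median at NF33 was -1.06 on the log2(mean TPM + 1) scale and -0.84 as a log2 fold change of counts, and 7 of the 14 lay above -0.8 on counts, up to 0.31. XBXL10_1g23497, singled out after its values were seen, was at 3.79, 16.8 and 15.0 TPM in NF33 controls and at 7.36, 3.32 and 2.98 TPM under BMS493. Its counts were 302, 305 and 290 in controls and 281, 254 and 243 under BMS493, a log2 fold change of -0.20. Its TPM values overlapped between the groups, and its counts per TPM relative to the median gene went from 0.614 in controls to 1.44. XBXL10_1g25780, singled out in the same way, had 10.9, 24.9 and 8.91 TPM in controls against 3.52, 4.06 and 4.4 TPM, from 190, 173 and 202 against 90, 107 and 127 counts. Both scales put it lower under BMS493, by -1.67 on the log2(mean TPM + 1) scale and -0.79 on counts. In rfx6 morphants at NF33 it had 74, 129 and 89 counts, a log2 fold change of -0.97, and these counts overlapped those under BMS493. XBXL10_1g27320, also singled out after its values were seen, had 27, 41 and 39 counts in those morphants against 67, 83 and 122 in controls, a log2 fold change of -1.36, and -1.46 under BMS493. All 5 members at or below -0.8 on counts in NF33 morphants were among the 14 shifting ones. Within the NF33 controls the coefficient of variation of these 14 members had a median of 33.2% for TPM and 6.86% for CPM. CPM are counts scaled by library totals that edgeR's TMM method had adjusted.

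The 20 members with steady counts per TPM were lower under BMS493 at NF33 on both scales. The rule set the difference on TPM, and where counts per TPM are steady the counts follow TPM. Their agreement was thus largely fixed in advance and nothing is read from it. In NF33 morphants the log2 fold changes of counts of these 20 members ran from -0.65 to 0.24, with a median of -0.34. Under BMS493 at NF33 their log2 fold changes of counts had a median of -1.23 and ran from -4.09 to -0.86. In all 20, each BMS493 library lay below each control library in TPM, as did 10 of the 14 shifting members. Over all 28313 genes tested, 19.2% showed that order, and since the rule used these libraries nothing is read from the comparison. The share of the rise that was missing ran from 26.8% to 139%, with a median of 66.9%. It was under 50% in 4 members, between 50% and 100% in 10, and 100% or more in 6.

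**Figure D3:**
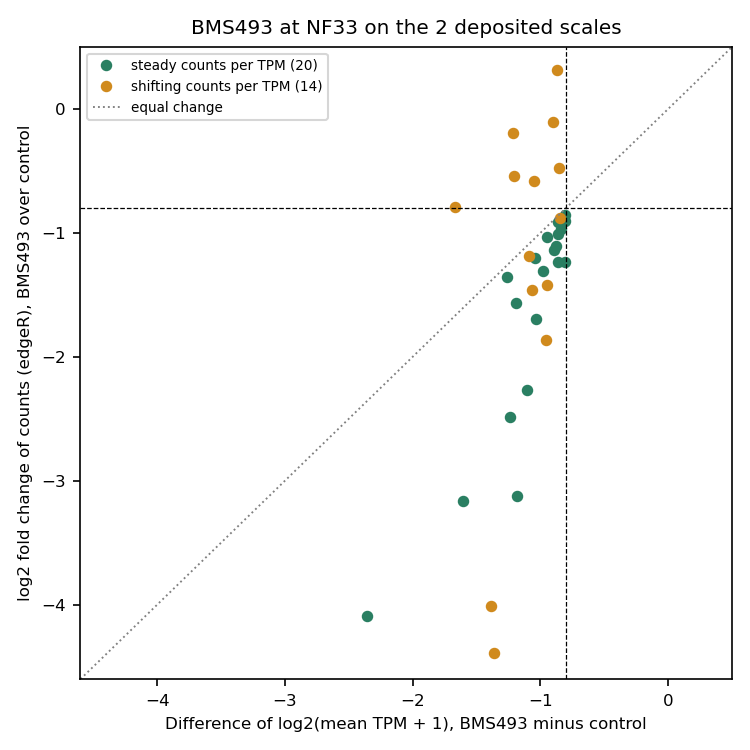
BMS493 against control at NF33 for the 34 members with enough counts: difference of log2(mean TPM + 1) (x axis) and log2 fold change of counts (y axis), with dashed lines at -0.8. All 20 members with steady counts per TPM lie at or below -0.8 on both axes, which the rule and the class definition largely fix. Of the 14 shifting members, 7 lie above -0.8 on counts.

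The most abundant members kept part of their rise under BMS493. XBXL10_1g36235, with the highest NF33 level, was at 5.51, 6.38 and 5.59 TPM in NF25 controls, at 56.0, 55.0 and 52.5 TPM at NF33 and at 106.0, 105.3 and 103.2 TPM at NF38. With BMS493 it was at 8.58, 8.25 and 8.5 TPM at NF25 and at 30.2, 30.0 and 31.8 TPM at NF33. At NF33 all BMS493 libraries lay below all controls, and at NF25 all lay above them. Rfx6 morphants held 47.0, 46.6 and 47.3 TPM at NF33, between the other groups. XBXL10_1g35694 was at 15.7, 15.8 and 15.5 TPM in NF25 controls and at 48.3, 47.9 and 47.6 TPM in NF33 controls. BMS493 explants had 10.7, 10.6 and 11.6 TPM at NF25 and 26.5, 25.3 and 26.0 TPM at NF33. This gene was thus below controls at both stages under BMS493, and its part missing at NF33 was 55.4% against 26.8% for XBXL10_1g36235.

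A pair of members stayed below the NF25 control level in every BMS493 library. They were not alone in lying below it by group means at both stages. XBXL10_1g12545, XBXL10_1g27630, XBXL10_1g36088, XBXL10_1g39063 and XBXL10_1g21402, singled out after their values were seen, did so too. XBXL10_1g40727 had the most negative BMS493 difference among members with at least 10 counts (-2.35 on the log2(mean TPM + 1) scale). It was at 0.890, 0.760 and 0.80 TPM in NF25 controls, at 5.72, 6.11 and 6.08 TPM in NF33 controls and at 4.83, 4.81 and 5.40 TPM in NF38 controls. In BMS493 explants it stayed at 0.380, 0.220 and 0.0900 TPM at NF25 and at 0.440, 0.270 and 0.380 TPM at NF33. Every BMS493 library was below every control library at both stages. XBXL10_1g43526 was at 0.990, 0.710 and 0.860 TPM in NF25 controls and at 2.61, 3.63 and 3.15 TPM in NF33 controls. BMS493 explants had 0.240, 0.170 and 0.210 TPM at NF25 and 0.430, 0.40 and 0.240 TPM at NF33, again below every control library. On counts the log2 fold changes under BMS493 were -1.86 at NF25 and -4.09 at NF33 for the first gene, and -1.96 and -3.17 for the second. They are described together because the rfx6 test at NF25 named both.

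**Figure D4:**
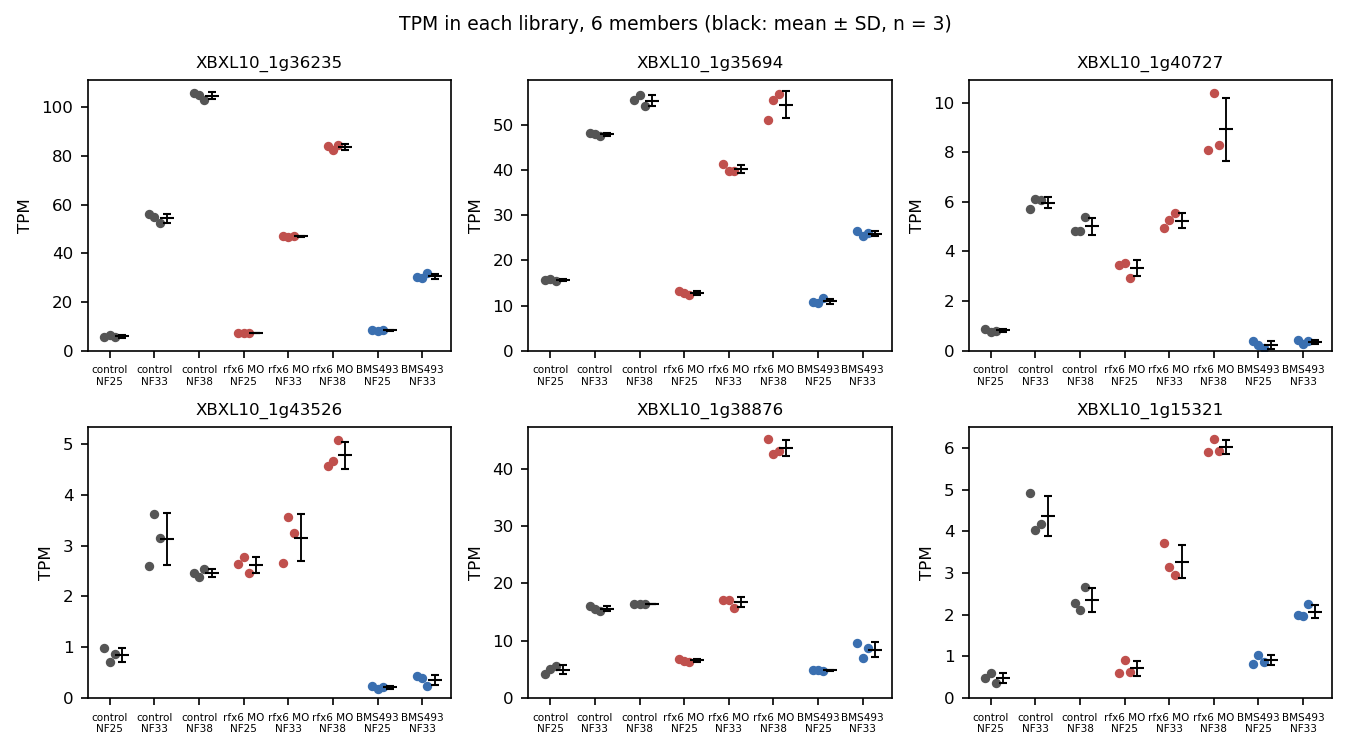
TPM (y axis) of 6 members in each library of the 8 groups, with mean and SD (n = 3) in black. XBXL10_1g40727 and XBXL10_1g43526 stay under 0.5 TPM in all 6 BMS493 libraries, and XBXL10_1g38876 and XBXL10_1g15321 are higher in rfx6 morphants than in controls at NF38.

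At NF25, before the rise, the members differed in both directions under BMS493. Of the 37, 9 stood more than 0.4 above controls on the log2(mean TPM + 1) scale, 9 more than 0.4 below and 19 within 0.4. Among the 20 members with steady counts per TPM, 4 stood above and 8 below by that much. Among the 14 shifting members, 4 stood above and 1 below. XBXL10_1g32130 had the largest gain after XBXL10_1g18390, with 2.15, 26.5 and 7.74 TPM against 2.21, 0.910 and 1.46 TPM in controls. One BMS493 library carried most of that, and the groups overlapped in TPM. Its counts were 70, 90 and 74 against 34, 21 and 40. At the other end of the log2(mean TPM + 1) scale, XBXL10_1g15317 was at 4.48, 5.56 and 5.39 TPM against 8.71, 10.2 and 7.44 TPM in controls. XBXL10_1g37171 was at 1.11, 1.45 and 1.11 TPM against 2.64, 2.61 and 2.11 TPM. In both, all BMS493 libraries lay below all controls, within the limit of 0.8 that the rule set. That scale compresses changes of genes under 1 TPM. On counts 9 of the 34 members were at a log2 fold change of -1 or below, among them XBXL10_1g40727, XBXL10_1g43526 and XBXL10_1g30875 (-1.55), and 3 were at 1 or above. Over all genes those shares were 4.70% and 6.99%, and since the rule used these libraries nothing is read from the comparison.

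The rfx6 morphants at NF25 gave the first comparison that the choice of members had not used, apart from its controls. A gene was called at an adjusted p under 0.05 (edgeR's quasi-likelihood test over 28313 genes) with at least a 2-fold change. Of the 34 members tested, 3 were higher and 3 lower, against 4.34% and 2.68% of all genes tested. With no fold minimum, 9 were higher and 6 lower, against 18.0% and 16.6% of all genes. In CPM, 8 members had all 3 morphant libraries above the 3 controls and 8 had them all below, against 22.1% and 20.2% of all genes. The median log2 fold change was -0.16 for the 34 members and 0.00 for all genes. The filter on low counts kept all 34 through a group other than those compared. The NF25 controls were read by the rule, so only the morphant side of this comparison is independent of it.

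XBXL10_1g40727 and XBXL10_1g43526, which were among the members below the NF25 control level under BMS493, rose in morphants at NF25. The first was at 3.46, 3.55 and 2.95 TPM in NF25 morphants against 0.890, 0.760 and 0.80 TPM in controls, and the log2 fold change was 2.16 with SE 0.20 (adjusted p = 2.62e-15, edgeR). The second was at 2.64, 2.77 and 2.46 TPM against 0.990, 0.710 and 0.860 TPM, and the log2 fold change was 1.71 with SE 0.19 (adjusted p = 8.72e-12, edgeR). Neither gene's groups overlapped. For the second gene these NF25 values overlapped its NF33 controls, and for the first they lay below them. At NF38 both were again higher in morphants, at 8.08, 10.4 and 8.29 TPM against 4.83, 4.81 and 5.40 TPM for the first and at 4.57, 4.68 and 5.09 TPM against 2.47, 2.38 and 2.54 TPM for the second. The log2 fold changes at NF38 were 0.88 (SE 0.11; edgeR adjusted p = 5.43e-10) and 1.01 (SE 0.13; edgeR adjusted p = 1.00e-09). The other members listed above as below the NF25 control level under BMS493 did not pass the test in NF25 morphants. Their edgeR adjusted p ran from 0.0768 to 0.947.

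Among the called members, those that fell furthest at NF25 were low in both groups. XBXL10_1g30875 fell from 1.00, 1.26 and 0.960 TPM in controls to 0.360, 0.230 and 0.310 TPM in morphants, and the log2 fold change was -1.73 with SE 0.30 (adjusted p = 1.86e-06, edgeR). BMS493 explants at this stage were at 0.420, 0.230 and 0.390 TPM, overlapping the morphants. XBXL10_1g21403 fell on counts, from 24, 4 and 7 to 4, 0 and 0, and the log2 fold change was -3.18 with SE 0.71 (adjusted p = 3.33e-04, edgeR). The value was -2.12 without control NF25 replicate 1, which held most of the control counts, and -6.87 without rfx6 NF25 replicate 1, which held all the morphant counts, so that the last value is a fit against a group at 0 and no bound. In TPM the same gene was at 17.7, 0 and 0 in morphants and at 0.80, 0.150 and 0.220 in controls, so the means point the other way. On log2(TPM + 1), limma gave a difference of 0.96 (SE 0.71; adjusted p = 0.323).

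At NF38, more members were higher than lower in rfx6 morphants. Of 34 tested, 20 were higher and 3 lower at an adjusted p under 0.05 (edgeR), or 58.8% and 8.82%, against 25.4% and 21.7% of all genes tested. With at least a 2-fold change, 5 were higher and 0 lower, against 9.01% and 1.92% of all genes. DESeq2 also called 0 lower. At an unadjusted p under 0.05 edgeR had 24 of the 34 in either direction, where it had 14816 of the 28313 genes tested. Of the 34, 24 had 3 morphant libraries all above the 3 controls in CPM, where 29.7% of all genes did, and 3 had them all below, where 25.9% did. The median log2 fold change was 0.54 for the members and 0.01 for all genes. The NF38 morphants had no part in the rule, while the NF38 controls did, since a member could not lie 1 or more below its NF33 level there. The filter kept 33 of the 34 members through a group other than those compared. Among the 20 members with steady counts per TPM, 11 were higher, 3 lower and 6 not called, with a median of 0.78.

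Of the 5 members called at least 2-fold higher, XBXL10_1g38876 had the largest log2 fold change. It was at 45.2, 42.5 and 43.1 TPM in NF38 morphants against 16.4 TPM in each of the 3 controls, and the log2 fold change was 1.47 with SE 0.08 (adjusted p = 7.78e-27, edgeR). At NF33 it had been at 17.2, 17.2 and 15.7 TPM in morphants and 16.0, 15.5 and 15.1 TPM in controls, so the groups overlapped at that stage. XBXL10_1g15321 was at 5.92, 6.21 and 5.94 TPM in NF38 morphants against 2.28, 2.11 and 2.67 TPM in controls, and the log2 fold change was 1.41 with SE 0.13 (adjusted p = 8.60e-14, edgeR). Its controls had come down from 4.92, 4.03 and 4.18 TPM at NF33, while its morphants had been at 3.73, 3.14 and 2.96 TPM. The morphant libraries at NF38 were thus above the controls of either stage. Of the most abundant members, XBXL10_1g36235 fell from 106.0, 105.3 and 103.2 TPM to 84.3, 82.5 and 84.6 TPM, and the log2 fold change was -0.27 with SE 0.04 (adjusted p = 2.80e-07, edgeR). XBXL10_1g35694 was at 55.5, 56.6 and 54.2 TPM in controls and 51.1, 55.6 and 56.9 TPM in morphants, with overlapping groups, and its log2 fold change of 0.03 did not pass the test (SE 0.04; adjusted p = 0.623, edgeR).

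The step from NF33 to NF38 differed in direction between controls and morphants for the typical member. On the log2(mean TPM + 1) scale its median was -0.27 in controls, with 26 of 37 below 0, and 0.16 in morphants, with 14 below 0. For the 24 tested members that did not go up in controls, the median step was -0.62 in controls and 0.07 in morphants, and 17 of them were called higher in NF38 morphants and 1 lower. For the 10 that went up in controls, the median step was 0.61 in controls and 0.74 in morphants, and 3 were called higher and 2 lower. All these steps use NF33 controls, NF33 morphants or NF38 controls, which the rule read. Steps and splits were not taken over all genes. Without a split, 25.4% of all genes tested were called higher in NF38 morphants and 21.7% lower. The splits also share the NF38 controls with the comparison they describe. A low NF38 control level both places a member among those that did not go up and raises its morphant difference. Steps and splits are therefore a description.

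Set beside other rising genes, the members' NF38 values lay on the other side of 0 from those of genes that both treatments lowered. Applying the same conditions with an rfx6 difference of -0.8 or less at NF33 gave 219 genes, of which 210 were tested. Of these, 30 were higher and 123 lower in NF38 morphants (adjusted p under 0.05, edgeR), with a median log2 fold change of -0.48. Genes within 0.4 of controls in both treatments at NF33, limited to the 300 most abundant of 680, had 109 higher and 64 lower, with a median of 0.08. The sets share all control libraries and were chosen on the NF33 morphants, and no test compared them. At NF25 the medians were 0.00 for the first set and 0.07 for the second, against -0.16 for the members.

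**Figure D5:**
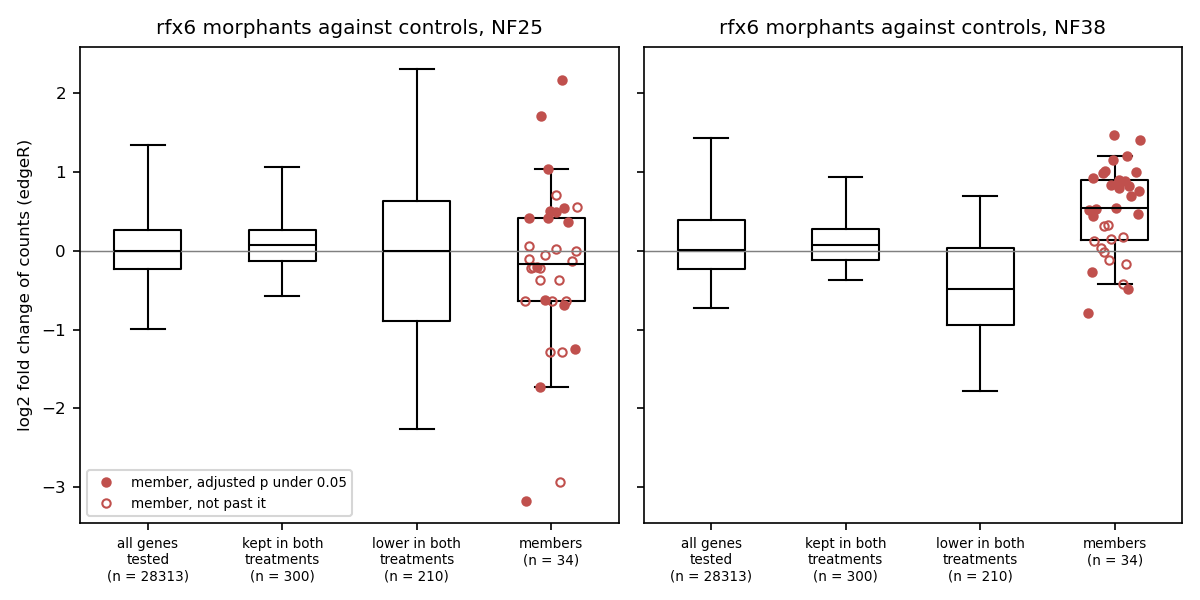
Log2 fold changes of counts in rfx6 morphants against controls at NF25 and NF38 for all genes tested, for rising genes kept in both treatments, for rising genes lower in both, and for the 34 members tested; boxes give quartiles and median, whiskers the 5 and 95 percent points, points the members. The members' median is -0.16 at NF25 and 0.54 at NF38.

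The rfx6 effect differed between NF25 and NF38 for many members. The test of that difference (edgeR, adjusted p under 0.05) called 20 of 34, of which 16 had a higher log2 fold change at NF38 and 4 a lower one, against 18.7% and 14.1% of all genes tested. Of the 34, 6 members were called higher at both stages, where 9.19% of all genes were. A further 5 were called in opposite directions, against 4.55% of all genes, and 3 of these were lower at NF25 and higher at NF38, against 2.15%. This comparison runs across the batch tags. It also uses the NF25 and NF38 controls, which the rule read, so only its morphant side is independent of the choice of members.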

How the data were processed

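RNA-seq was deposited by the authors as estimated counts and as TPM per gene. RSEM 1.3.0 and Bowtie2 appear, with no roles, in the submitters' processing notes. The sources used here give neither build nor annotation. All deposited counts are whole, so none were rounded here; in 6245 of 1067472 table entries the count is 0 although TPM is above 0. A row without a gene identifier held 0% of counts and was left out. Libraries were stranded, per the labels' protocols; the strand setting used in counting is not stated.

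Members came from the deposited TPM (pseudocount 1). Counts were fitted with edgeR 4.0.16 in R 4.3.3: filterByExpr (minimum count 10, minimum total 15; 28313 genes, 34 of 37 members), TMM scaling, 1 mean per group over 24 libraries, robust glmQLFit, glmQLFTest, Benjamini-Hochberg over all genes. SE is the log2 fold change over the root of F. The fit was tested on simulated data. Alternatives used DESeq2 1.42.0 and limma 3.58.1. Counts per TPM were taken for groups with at least 20 counts and 0.3 TPM. Members and lists were chosen with earlier results of these data known. Named genes were, per comparison, the 2 members with the highest NF33 control level, the 2 most negative under BMS493 at NF33, the 2 highest and 2 lowest under BMS493 at NF25, and the 2 most positive and 2 most negative called in rfx6 morphants at NF25 and NF38; others are marked as chosen after their values were seen.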

Additional observations from a re-analysis of the deposited data

Results flagged for a closer look

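The effect of the rfx6 morpholino differed between NF38 and NF25, by the edgeR test of the difference itself, in the 6 members named for that effect. These 6 were named for a large effect at 1 of the stages, which favours a difference between stages. Of all 34 members tested, 20 differed, where 9295 of all 28313 genes tested did. Stage and batch tag cannot be told apart here, and the rule read the controls of both stages. The log2 fold change was lower at NF38 for XBXL10_1g40727, by -1.28 (SE 0.23; edgeR adjusted p = 6.83e-06), and for XBXL10_1g43526, by -0.70 (SE 0.24; edgeR adjusted p = 0.0176). It was higher at NF38 for XBXL10_1g21403, by 3.69 (SE 0.71; edgeR adjusted p = 4.45e-05), a value that rests on few counts at NF25. XBXL10_1g30875 differed by 2.05 (SE 0.34; edgeR adjusted p = 7.71e-07) and XBXL10_1g38876 by 0.97 (SE 0.16; edgeR adjusted p = 4.10e-07). XBXL10_1g15321 differed by 0.86 (SE 0.30; edgeR adjusted p = 0.0202).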

How the results depend on the processing

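The number of genes found changed more with the pseudocount than with any library left out. The rule found 62 genes with a pseudocount of 0.1 (19 shared with the 37), 8 with a pseudocount of 5 (4 shared) and 19 with a BMS493 loss of 1; on CPM it found 28, of which 14 were shared. Leaving out a library gave 31 to 43 genes. With no fold minimum, members called in rfx6 morphants were 9 higher and 6 lower at NF25, against 18.0% and 16.6% of all genes tested. At NF38 they were 20 higher and 3 lower, against 25.4% and 21.7%. With unadjusted library totals in edgeR the NF25 balance turned round, to 6 higher and 10 lower members. All genes then had 3378 higher and 7163 lower of 28313. At NF38 that setting again gave 20 higher and 3 lower members, where all genes had 6587 and 6553. At 2-fold or more, limma on log2(TPM + 1) called 1 higher and 0 lower at NF25 and 3 higher at NF38. Its shares of all genes at 2-fold were 1.77%, 0.911% and 3.52%, also below those of edgeR. With no fold minimum it called 5 higher and 3 lower of 36 members at NF25, where it had 2957 and 5531 of 24374 genes. At NF38 it called 13 higher and 3 lower members, where it had 4987 and 5897 genes. It put XBXL10_1g21403, whose counts per TPM shifted, at 0.96 in place of -3.18. Counting the 20 members with steady counts per TPM alone was an alternative chosen after seeing the data. At 2-fold or more it gave 2 higher and 1 lower at NF25, against 4.34% and 2.68% of all genes tested. At NF38 it gave 3 higher and 0 lower, against 9.01% and 1.92%. Leaving out each replicate of the groups compared gave, at 2-fold or more, 2 to 3 higher and 2 to 4 lower at NF25 and 4 to 7 higher and 0 lower at NF38. For the difference between stages, called by adjusted p alone (edgeR), it gave 13 to 17 higher and 4 to 5 lower. The replicate block gave, at 2-fold or more, 3 higher and 3 lower at NF25 and 5 higher and 0 lower at NF38. By adjusted p alone it gave 16 and 4 for the difference, and all these were as without it. Same-numbered libraries deviated together with correlations of -0.248 to 0.0318, so the numbers were not taken as pairs. Over these results and every alternative run, 116 counts of members stayed within 1.5 times the reported one and 12 did not, and 80 values for single genes kept their direction and stayed past both thresholds. Of the others 1 reversed, and limma put XBXL10_1g43526 at 0.97 and XBXL10_1g30875 at -0.67 at NF25, under 2-fold. The 3 members under 10 counts entered the edgeR test only without the filter on low counts. That setting gave, at 2-fold or more, 3 higher and 3 lower at NF25 and 4 higher and 0 lower at NF38.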
